A study of Mus musculus with 6 samples.

Results

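The genes described are 10 AP-1 and immediate early genes of mouse prostate basal cells. They are the FOS genes Fos, Fosb, Fosl1 and Fosl2, the JUN genes Jun, Junb and Jund, and the stimulus-induced genes Atf3, Egr1 and Ier2. They were chosen by name. All 10 had values among the 25614 genes found in the files, and all 10 were among the 10370 genes that averaged 1 FPKM or more and entered the test. FPKM counts fragments for each kilobase of a transcript, relative to all fragments of its library. The libraries come from basal cells of proximal ducts, those nearest the urethra, and of distal ducts, toward the gland tips. Both groups are C57BL/6 mice of 8 to 12 weeks with no treatment or engineered allele in the labels, and each has 3 libraries. The labels describe digestion of the tissue, antibody staining and sorting, and a culture of stromal cells. They do not give the antibodies or gates, the time between dissection and lysis, or whether the basal cells were cultured. Nor do they state that libraries are separate animals. The p-values therefore describe spread between libraries, which may be technical.

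AP-1 is a transcription factor built as a dimer of leucine zipper proteins. FOS proteins cannot pair with each other and bind DNA with a JUN partner, whereas JUN proteins can also pair among themselves. Many of these genes are immediate early genes, transcribed within minutes of a growth factor, wound or stress signal without new protein synthesis. Enzymatic dissociation and sorting of tissue are known to induce many of them, so their level in sorted cells can differ from that in the intact gland. In epithelia they are known for roles in proliferation, wound repair and stress responses.

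The deposited intervals imply about 20700000 to 26600000 fragments a library. The interval of a member reached at most 13.6% of its value on either side for Fosb and at most 4.78% for the other 9. The basal keratin Krt14 lay at 2121 to 2276 FPKM in proximal and 2283 to 3397 FPKM in distal libraries, and the basal factor Trp63 at 27.8 to 39.1 FPKM in proximal and 34.6 to 74.7 FPKM in distal libraries. Krt14 and Trp63 were among the 3 of 11 tested basal markers that were lower on average in proximal cells. Of the 11, 5 were higher in proximal cells by the test used below. The luminal keratin Krt18 was also high, at 1218 to 1373 FPKM in proximal and 1076 to 1628 FPKM in distal libraries. These are bulk values, in which fewer cells of a type and less RNA per cell cannot be told apart. The proximal and distal libraries numbered 1 stood apart from the others of their group for several members, and results are therefore given with and without them.

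Proximal basal cells had less RNA of Ier2 and Junb than distal basal cells, and 9 of the 10 members had a lower mean in the proximal group. Only Fosl1 had a higher one. Ier2 and Junb passed the test (limma, Benjamini-Hochberg adjusted p under 0.05 over all tested genes), none was higher, and 8 did not pass. Of all tested genes, 2.51% were lower in proximal cells by the same test. The 3 proximal values lay below the 3 distal values in 6 members, as in 13.0% of all tested genes. The median log2 fold change, proximal over distal, was -0.80 over the members and -0.01 over all tested genes. The unadjusted p was under 0.05 with a lower proximal level in 6 members, as in 12.0% of all tested genes.

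**Figure D1:**
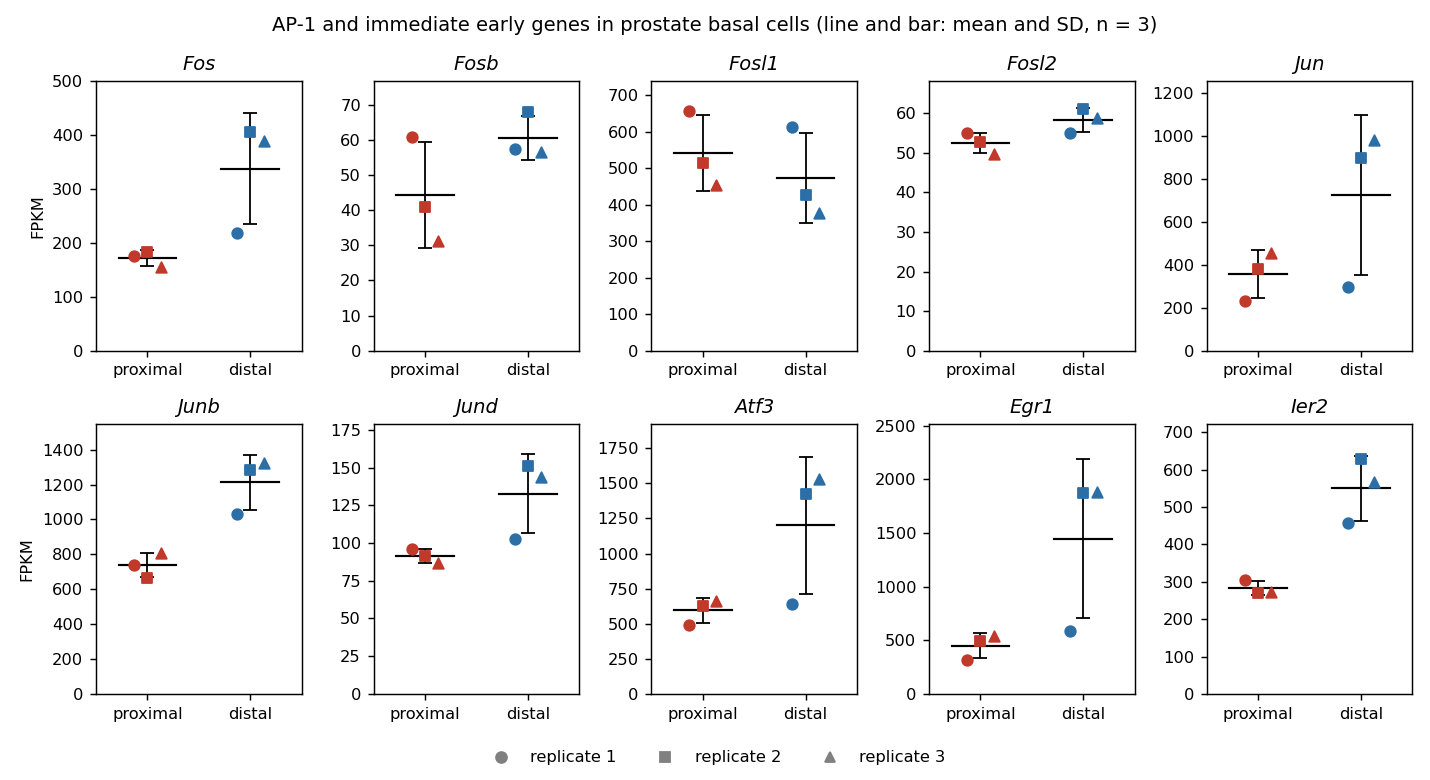
Level of each of the 10 members in FPKM, with a panel for each gene. Each point is a library, its shape gives the replicate number, proximal basal is left of distal basal, and the line and bar are the group mean and SD (n = 3). Distal replicates 2 and 3 lie well above distal replicate 1 for Egr1, Jun, Atf3 and Fos, whereas the Fosl1 groups overlap.

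Ier2 encodes a nuclear protein induced early by growth factors. The gene lies at chr8:84661331-84662852 on the minus strand (mm10, as for all positions here). Its level was 306.2, 270.7 and 273.1 FPKM in proximal replicates 1, 2 and 3, and 456.4, 628 and 567.5 FPKM in distal replicates 1, 2 and 3. Every proximal library lay below every distal one. Ier2 fell to 283.3 ± 19.8 FPKM in proximal cells, against 550.6 ± 87.0 FPKM in distal cells (SD, n = 3 each). The log2 fold change was -0.95 ± 0.14 (SE, limma, adjusted p = 0.00838), and it stayed past the threshold on leaving out any 1 library.

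Junb encodes a JUN protein that pairs with FOS proteins and can oppose Jun in growth control. It lies at chr8:84974484-84978718 on the minus strand. Its level was 741.1, 667.4 and 807.8 FPKM in proximal replicates 1, 2 and 3, and 1033.0, 1282.9 and 1323.4 FPKM in distal replicates 1, 2 and 3. The groups did not overlap, and distal replicate 1 was the lowest of its group. Junb fell to 738.8 ± 70.2 FPKM in proximal cells, against 1213.1 ± 157 FPKM in distal cells (SD, n = 3 each). On the log2 scale the difference was -0.71 ± 0.15 (SE; limma, adjusted p = 0.0282). Without distal replicate 2 or 3, without proximal replicate 2 or 3, and with no filter on low values, Junb did not pass (limma, adjusted p from 0.0691 to 0.135). Its log2 fold change then lay between -0.64 and -0.78.

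The other JUN genes did not pass the test. Jun, the founding JUN gene, lies at chr4:95049034-95052222 on the minus strand. It measured 233.5, 382.3 and 453.3 FPKM in proximal replicates 1, 2 and 3, and 296.6, 896.8 and 983.6 FPKM in distal replicates 1, 2 and 3. Both libraries numbered 1 were the lowest of their group, and distal replicate 1 lay within the proximal range. On the log2 scale Jun differed by -0.90 ± 0.45 (SE, limma, adjusted p = 0.271). Jund encodes the JUN protein that is known to be present in unstimulated cells. Its annotated gene lies at chr8:70698949-70700616 on the plus strand, and an antisense gene, Gm11175, overlaps it, so reads of the pair cannot be told apart without strand. Jund measured 96.2, 91.7 and 86.5 FPKM in proximal replicates 1, 2 and 3, and 102.6, 151.2 and 143.9 FPKM in distal replicates 1, 2 and 3. The groups did not overlap, by a margin of a few FPKM at distal replicate 1. Its log2 fold change was -0.51 ± 0.15 (SE, limma, adjusted p = 0.0902).

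Among the FOS genes, Fos stood closest to the threshold. Fos, the classical serum-induced partner of Jun, lies at chr12:85473890-85477273 on the plus strand. It measured 175, 184.1 and 155.1 FPKM in proximal replicates 1, 2 and 3, and 219.2, 405.5 and 388.5 FPKM in distal replicates 1, 2 and 3. Every proximal library lay below every distal one, and distal replicate 1 lay nearer the proximal values than the other distal libraries. Fos averaged 171.4 ± 14.8 FPKM in the proximal group and 337.7 ± 103 FPKM in the distal group (SD, n = 3 each). Its log2 fold change was -0.93 ± 0.23 (SE; limma, adjusted p = 0.0510).

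Fosb, a close relative of Fos that is induced by many of the same stimuli, lies at chr7:19302696-19310051 on the minus strand. It measured 60.7, 40.9 and 31.1 FPKM in proximal replicates 1, 2 and 3, and 57.5, 67.8 and 56.4 FPKM in distal replicates 1, 2 and 3. The groups overlapped because proximal replicate 1 was above distal replicates 1 and 3. For Fosb the log2 fold change was -0.49 ± 0.22 (SE, limma, adjusted p = 0.218). Fosb is the member with 2 transcripts that share its level. The one of 3776 bases held 60.2% to 69.0% of it and the one of 1535 bases 31.0% to 39.8% over the 6 libraries.

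Fosl1 and Fosl2 encode the FOS-related proteins FRA1 and FRA2, which lack the strong activation domain of FOS and are known for later, longer-lived expression. Fosl1 lies at chr19:5447547-5455946 on the plus strand. It measured 656.7, 514.9 and 454.3 FPKM in proximal replicates 1, 2 and 3, and 612.1, 427.1 and 378.2 FPKM in distal replicates 1, 2 and 3. Both libraries numbered 1 were the highest of their group, the reverse of Jun, and the groups overlapped. For Fosl1 the log2 fold change was 0.21 ± 0.21 (SE, limma, adjusted p = 0.581). Fosl2 lies at chr5:32135801-32157842 on the plus strand. It measured 55.01, 52.78 and 49.84 FPKM in proximal replicates 1, 2 and 3, and 55.03, 61.14 and 58.74 FPKM in distal replicates 1, 2 and 3. The values of the libraries numbered 1 were nearly equal, and the group ranges nearly met there without overlapping. The log2 fold change was -0.15 ± 0.10 (SE, limma, adjusted p = 0.390).

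Promoter sequence of 7 members was read from the RefSeq table for GRCm38.p6, from 250 bases before to 50 after the annotated start. No promoter is given here for Fosl1, Ier2 and the EGR gene. The 4 promoters shown are those in which a searched motif was found. Those of Fos, Junb and Atf3 are shown only for TGACGT or TATAAA, which were added to the search after the sequences were seen. The coordinates are chr12:85473640-85473939 on the plus strand for Fos, chr4:95052173-95052472 on the minus strand for Jun, chr8:84978699-84978998 on the minus strand for Junb and chr1:191183284-191183583 on the minus strand for Atf3. Each is written 5′ to 3′ on the strand of the gene, and capitals mark the motif matches.
Fos: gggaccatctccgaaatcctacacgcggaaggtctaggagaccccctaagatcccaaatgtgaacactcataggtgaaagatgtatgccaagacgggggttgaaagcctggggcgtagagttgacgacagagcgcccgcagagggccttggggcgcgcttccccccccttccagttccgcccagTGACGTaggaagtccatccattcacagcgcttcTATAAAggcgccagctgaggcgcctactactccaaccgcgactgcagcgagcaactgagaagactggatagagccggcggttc
Jun: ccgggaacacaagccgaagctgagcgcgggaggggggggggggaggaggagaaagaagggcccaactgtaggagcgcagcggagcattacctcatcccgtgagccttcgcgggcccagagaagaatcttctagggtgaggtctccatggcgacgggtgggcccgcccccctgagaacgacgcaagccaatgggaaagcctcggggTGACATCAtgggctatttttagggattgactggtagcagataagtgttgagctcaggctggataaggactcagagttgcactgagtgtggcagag
Junb: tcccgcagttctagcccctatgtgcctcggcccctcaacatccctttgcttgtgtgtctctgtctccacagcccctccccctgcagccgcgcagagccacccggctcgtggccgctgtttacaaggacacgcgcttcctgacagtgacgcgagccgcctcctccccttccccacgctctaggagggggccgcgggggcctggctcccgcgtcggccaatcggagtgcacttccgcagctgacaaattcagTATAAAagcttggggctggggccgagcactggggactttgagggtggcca
Atf3: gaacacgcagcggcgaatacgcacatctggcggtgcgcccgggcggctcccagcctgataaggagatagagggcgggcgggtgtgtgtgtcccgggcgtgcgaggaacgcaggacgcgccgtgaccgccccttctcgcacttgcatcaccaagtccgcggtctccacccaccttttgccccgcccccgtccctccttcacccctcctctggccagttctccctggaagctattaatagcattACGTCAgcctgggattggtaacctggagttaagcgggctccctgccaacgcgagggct
In capitals are TGACGT and TATAAA for Fos, TGACATCA for Jun, TATAAA for Junb, and ACGTCA, the reverse complement of TGACGT, for Atf3. TGACGT is the core of the cAMP response element, and TGACATCA is the site through which JUN and ATF proteins are known to act on Jun. TATAAA has the letters of a TATA box, but in Junb the match begins at the annotated start itself. Counted from the start, the matches span bases -66 to -61 and -33 to -28 in Fos, -45 to -38 in Jun, 1 to 6 in Junb and -8 to -3 in Atf3. On both strands of all 32851 promoters of this length, TGACGT was found in 7.51%, TGACATCA in 3.62% and TATAAA in 13.6%. The full cAMP response element TGACGTCA, which contains TGACGT, was in 1.79% of promoters. The AP-1 site TGACTCA was in 5.20%, the heat shock element GAANNTTCNNGAA in 0.603% and the CArG box, the site of serum response factor, in 1.63%. None of these 4 was in the windows of the 7 members, and none of the 7 motifs was in those of Fosb, Fosl2 and Jund. A match describes the letters only, and its absence concerns these windows alone. The Jund window, chr8:70697489-70697788 on the plus strand, was set by the RefSeq start and ends before the GENCODE position given above.

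Atf3 encodes a stress-induced leucine zipper factor that can pair with JUN proteins. It lies at chr1:191170296-191218039 on the minus strand. Its level was 493.2, 627.5 and 664.2 FPKM in proximal replicates 1, 2 and 3, and 641.6, 1425.4 and 1533.4 FPKM in distal replicates 1, 2 and 3. Distal replicate 1 lay within the proximal range and the other distal libraries far above it. The log2 fold change was -0.92 ± 0.32 (SE, limma, adjusted p = 0.125).

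Egr1 encodes a zinc finger factor induced by growth factors through serum response factor. It lies at chr18:34859823-34864984 on the plus strand. Its level was 314.3, 496.6 and 539.5 FPKM in proximal replicates 1, 2 and 3, and 588, 1869.5 and 1882.3 FPKM in distal replicates 1, 2 and 3. The groups did not overlap, but distal replicate 1 lay near the upper proximal values. Egr1 averaged 450.1 ± 120 FPKM in the proximal group and 1446.6 ± 744 FPKM in the distal group (SD, n = 3 each). The log2 fold change of -1.54 ± 0.44 was the largest of the members in size and did not pass the test (SE, limma, adjusted p = 0.0809).

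By mean level per length, the order of the members differed between the groups, but not in every library. In proximal cells Junb was highest, followed by Atf3, Fosl1, Egr1, Jun, Ier2, Fos, Jund, Fosl2 and Fosb. Junb was separated from Atf3, neighbours from Atf3 to Ier2 overlapped between libraries, Fosl2 and Fosb overlapped, and Fos and Jund were each separated from their neighbours. In distal cells Egr1 was highest, followed by Junb, Atf3, Jun, Ier2, Fosl1, Fos, Jund, Fosb and Fosl2. There, every neighbouring pair from Egr1 to Fos overlapped, Jund stood apart from its neighbours, and Fosb and Fosl2 overlapped. The distal order follows distal replicates 2 and 3. In distal replicate 1, Junb was highest at 1033.0 FPKM, then Atf3 at 641.6, Fosl1 at 612.1 and Egr1 at 588 FPKM, as in the proximal order.

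The libraries numbered 1 carried much of the spread. Distal replicate 1 was the lowest distal library for 8 of the 10 members. As a share of the mean of distal replicates 2 and 3, its level was 31.3% for Egr1, 31.6% for Jun, 43.4% for Atf3 and 55.2% for Fos, but 79.3% for Junb, 92.5% for Fosb and 152% for Fosl1. Set against the mean of proximal replicates 2 and 3 in the same way, proximal replicate 1 reached 55.9% for Jun, 60.7% for Egr1 and 76.4% for Atf3, 103% for Fos and 169% for Fosb. The mean deviation of the members from their 6-library mean on the log2 scale was -0.36, -0.32 and -0.35 in proximal replicates 1, 2 and 3, and -0.07, 0.58 and 0.53 in distal replicates 1, 2 and 3. The proximal libraries were thus alike on average, and distal replicate 1 lay between them and the other distal libraries.

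Without both libraries numbered 1, 8 of the 10 members were lower in proximal cells, with 2 libraries left in each group. Of all tested genes, 13.6% were lower in proximal cells in that fit. The log2 fold change was -1.86 for Egr1 (limma, adjusted p = 4.68e-04), -1.23 for Fos (limma, adjusted p = 0.00197), -1.19 for Atf3 (limma, adjusted p = 0.00161) and -1.17 for Jun (limma, adjusted p = 0.00271). It was -1.13 for Ier2, -0.83 for Junb, -0.78 for Fosb and -0.72 for Jund, with limma adjusted p-values from 0.00161 to 0.0199. Fosl1, at 0.27, and Fosl2, at -0.22, did not pass (limma, adjusted p = 0.13 and 0.107). Distal replicate 1 was the lowest distal library for most members, so leaving it out widens their difference by construction, and these p-values describe the remaining libraries and are no independent support. Leaving out distal replicate 1 alone gave 7 members lower in proximal cells, all but Fosb, Fosl1 and Fosl2, beside 6.09% of all tested genes. Leaving out proximal replicate 1 alone gave 3, namely Fosb, Junb and Ier2, beside 5.39% of all tested genes. Leaving out any 1 of the other 4 libraries gave Ier2 alone. Of all tested genes, 0.446% and 0.589% were then lower without distal replicates 2 and 3, and 0.521% and 0.741% without proximal replicates 2 and 3.

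**Figure D2:**
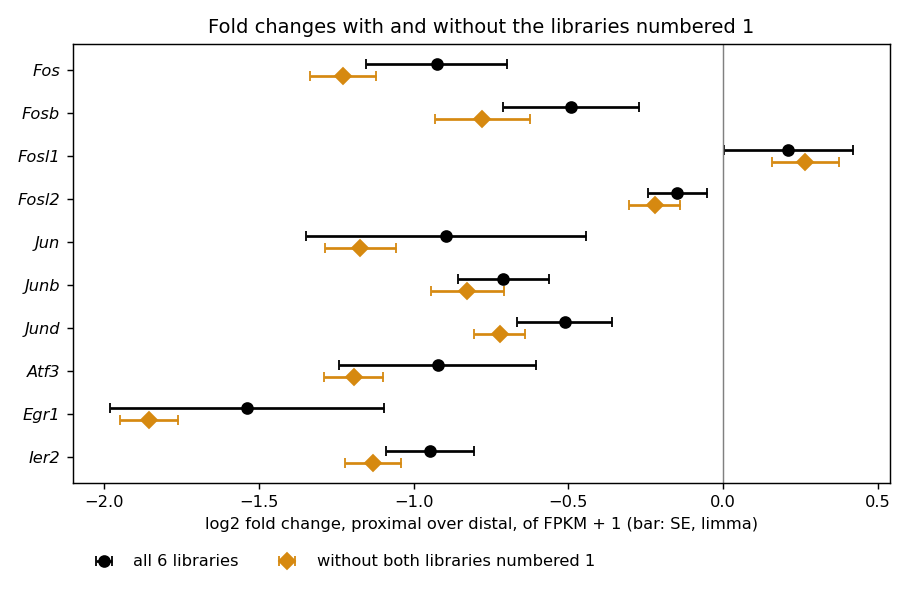
Log2 fold change of each member, proximal over distal on the log2(FPKM + 1) scale, with all libraries and without both libraries numbered 1. Black circles use all 6 libraries, orange diamonds leave out the libraries numbered 1, and bars are standard errors from limma. Egr1 lies farthest below 0 at -1.54 and -1.86, its bar is shorter without those libraries, and Fosl1 lies above 0.

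Members differed in how steady they were within a group. The pooled within-group SD on the log2 scale was 0.76 for Jun, 0.74 for Egr1 and 0.52 for Atf3, larger than in 98.7%, 98.7% and 97.0% of tested genes. It was 0.07 for Fosl2, 0.17 for Junb and 0.18 for Ier2, beside a median of 0.18 over all tested genes. Ier2 and Junb, which passed, thus lay near the median spread, and Jun and Egr1 far above it. Over the 6 libraries, which share the same groups, Pearson's r of log2 levels was 0.99 between Atf3 and Egr1, 0.99 between Fos and Jund, 0.97 between Jun and Atf3 and 0.97 between Junb and Ier2. These were the highest values of any pair of members, and the lowest was -0.95 between Fosl1 and Jun. For Fosb, r ranged from 0.12 with Fosl1 to 0.89 with Fosl2, with 0.17 for Jun and 0.38 for Atf3. These are descriptions, since group and library differences both enter them.

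The make-up of the FOS and JUN families also varied. The summed level of the 4 FOS genes was 947, 793 and 690.4 FPKM in proximal replicates 1, 2 and 3, and 944, 962 and 882 FPKM in distal replicates 1, 2 and 3, so the group ranges overlapped. Fosl1 made up 65.0% to 69.3% of that sum in proximal libraries and 42.9% to 64.9% in distal libraries. Fos made up 18.5% to 23.2% in proximal libraries and 23.2% to 44.1% in distal libraries. In distal replicate 1 the split between Fosl1 and Fos was close to that of the proximal libraries. The summed level of the 3 JUN genes was 1071, 1141 and 1347.5 FPKM in proximal replicates 1, 2 and 3, and 1432, 2331 and 2451 FPKM in distal replicates 1, 2 and 3, with no overlap. Junb was the main JUN transcript in every library, at 58.5% to 69.2% in proximal and 54.0% to 72.1% in distal libraries. The shares were not tested.

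**Figure D3:**
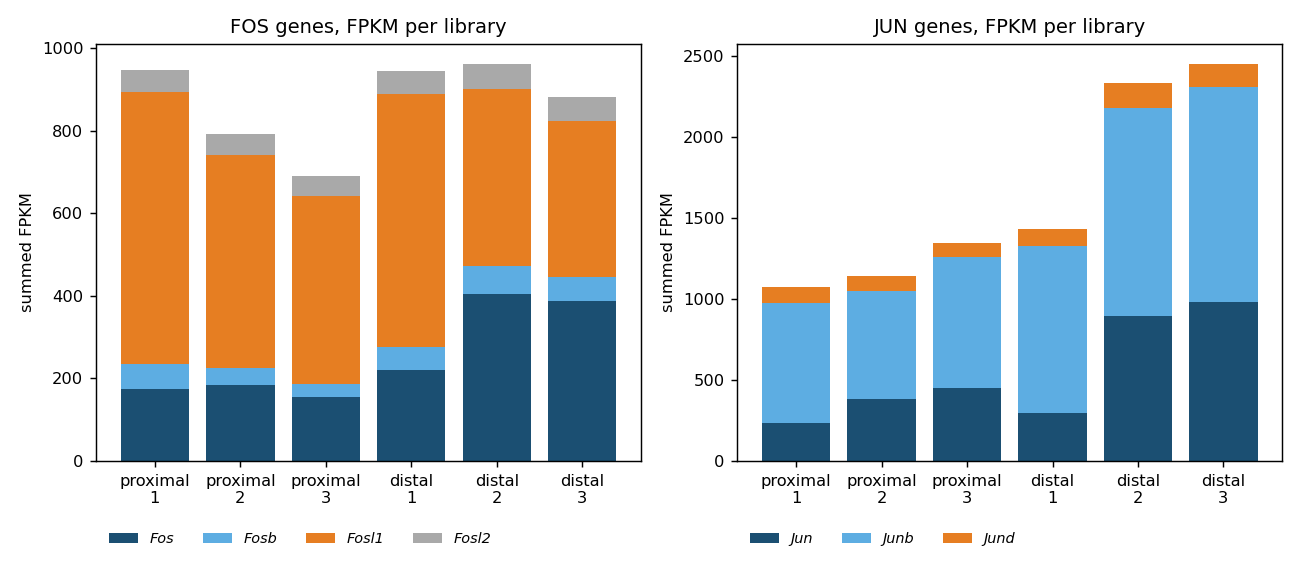
Summed FPKM of the 4 FOS genes and of the 3 JUN genes in each library, proximal left of distal, with each bar divided by gene. The heights of the FOS bars overlap between the groups while the Fos segment is taller in distal replicates 2 and 3, and the JUN bars of distal replicates 2 and 3 are the tallest.

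Other immediate early genes were read in the same fit. Of 42 tested, 5 were lower in proximal cells, 0 were higher and 37 did not pass, with a median log2 fold change of -0.38 beside -0.01 over all tested genes. Plk3, a stress-activated kinase of the polo family, fell to 12.8 ± 0.49 FPKM in proximal cells, against 26.9 ± 4.17 FPKM in distal cells (SD, n = 3 each, limma, adjusted p = 0.0048), and passed on leaving out any 1 library. Csrnp1, a cysteine- and serine-rich nuclear protein, fell to 134.5 ± 8.67 FPKM in proximal cells, against 229.5 ± 26.6 FPKM in distal cells (SD, n = 3 each, limma, adjusted p = 0.0102). Arc, best known as a synaptic immediate early gene, was the most abundant of the 5, at 752.7, 673.2 and 613.4 FPKM in proximal libraries and 1069.6, 1027.4 and 1019.9 FPKM in distal libraries. Its groups did not overlap, and distal replicate 1 was not low (log2 fold change -0.62, limma, adjusted p = 0.0265). Nab2, a corepressor of EGR proteins, had a log2 fold change of -0.95 (limma, adjusted p = 0.0247) and was likewise highest in distal replicate 1, at 43.5 FPKM against 36.9 and 37.7 FPKM in the other distal libraries. Egr2, a relative of Egr1, measured 23.6, 27.3 and 25.8 FPKM in proximal libraries and 35.4, 76.6 and 78.2 FPKM in distal libraries (log2 fold change -1.19, limma, adjusted p = 0.0428). The calls of Csrnp1, Arc, Nab2 and Egr2 were lost without distal replicate 2, distal replicate 3 or proximal replicate 2, and those of Arc, Nab2 and Egr2 also without proximal replicate 3 and with no filter. Egr2 also did not pass without proximal replicate 1 and without the variance trend. Over all these fits the adjusted p reached at most 0.164 (limma).

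Dimer partners and upstream genes did not pass. Of 9 tested other AP-1-related leucine zipper factors, 0 passed, with a median log2 fold change of -0.24. Atf2, a partner of Jun, measured 14.9, 14.0 and 13.6 FPKM in proximal libraries and 14.6, 17.8 and 18.7 FPKM in distal libraries (limma, adjusted p = 0.262). Of 21 tested upstream kinases and promoter factors, 0 passed, with a median of 0.08. An unadjusted p under 0.05 was found for 3 of the upstream genes and 0 of the partners. Of these 3, only Srf was lower on average in proximal cells, and the others were higher. A lower proximal level with an unadjusted p under 0.05 was found in 12.0% of all tested genes. Srf, the serum response factor, measured 39.86, 37.91 and 43.84 FPKM in proximal libraries and 43.76, 58.11 and 59.14 FPKM in distal libraries. It did not pass (limma, adjusted p = 0.135), and distal replicate 1 lay within the proximal range, so the groups overlapped. Of 14 tested textbook AP-1 target genes, 2 were higher, 1 was lower and 11 did not pass, with a median of -0.06. Ets1, a transcription factor, and Hmox1, heme oxygenase 1, had log2 fold changes of 0.62 and 0.85 (limma, adjusted p = 0.0111 and 0.0202). Ptgs2, the inducible cyclooxygenase, fell to 75.2 ± 31.5 FPKM in proximal cells, against 190.9 ± 44.8 FPKM in distal cells (SD, n = 3 each, limma, adjusted p = 0.0304). These 3 genes did not pass without distal replicate 2. Ets1 and Ptgs2 also did not pass without distal replicate 3 or proximal replicate 2, Hmox1 without proximal replicate 3, and Hmox1 and Ptgs2 with no filter (limma, adjusted p up to 0.119 over these fits).

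Heat shock genes, which respond to protein damage and are also known to be induced during tissue handling, were read in each library too. Of 16 tested, 1 was higher, 1 was lower and 14 did not pass, with a median log2 fold change of -0.43. Hspa8, the constitutive chaperone HSC70, measured 374.7, 326.1 and 308 FPKM in proximal libraries and 455.5, 671.9 and 673.9 FPKM in distal libraries (log2 fold change -0.82, limma, adjusted p = 0.0322). Hspa8 did not pass with no filter, with quantile normalization, or without distal replicate 2 or 3 or proximal replicate 2 or 3 (limma, adjusted p up to 0.14). Hspa4l, a relative of the HSP110 chaperones, was higher in proximal cells, at 10.3 ± 0.46 FPKM, against 4.78 ± 0.32 FPKM in distal cells (SD, n = 3 each, limma, adjusted p = 0.00271). Hspa1a, the inducible HSP70, was named after its values were seen and has a near-identical copy, Hspa1b, so the division of reads between them is uncertain. It measured 501.6, 734.8 and 803.3 FPKM in proximal libraries and 617.3, 2062.1 and 2186.1 FPKM in distal libraries (limma, adjusted p = 0.201), the pattern of Egr1 and Jun. The mean deviation of the heat shock list was -0.20, -0.25 and -0.20 in proximal replicates 1, 2 and 3, and -0.19, 0.36 and 0.48 in distal replicates 1, 2 and 3. That of the other immediate early genes was -0.09, -0.27 and -0.23 in proximal and 0.08, 0.25 and 0.26 in distal replicates 1, 2 and 3. The part of tissue handling in the members' levels was not tested.

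**Figure D4:**
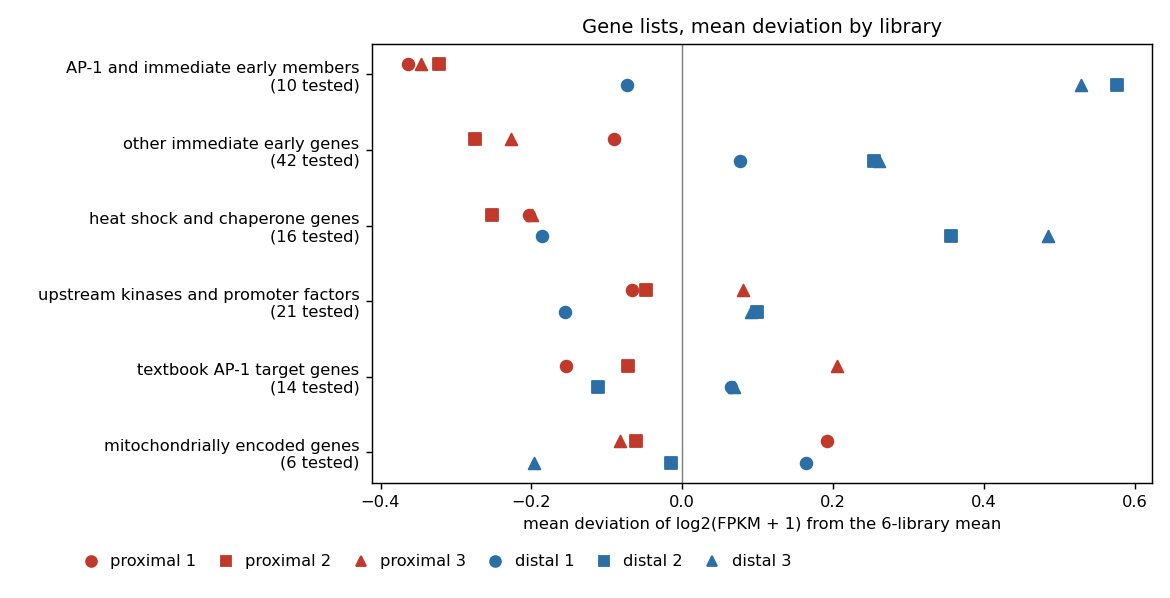
Mean deviation from the 6-library mean, on the log2(FPKM + 1) scale, for the members and 5 other gene lists. Each point is a library, proximal in red above distal in blue, with its shape giving the replicate number. The members are at -0.07 in distal replicate 1 and at 0.58 and 0.53 in distal replicates 2 and 3, and the heat shock genes at -0.19, 0.36 and 0.48 in the same libraries.

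Markers of other cells differed between the groups beside the members. Summed levels below include every listed marker with a value, also those too low to enter the test. Of 8 tested endothelial markers, 6 were higher in proximal cells and 0 lower, with a summed level of 24.2 to 33.2 FPKM in proximal and 3.00 to 15.9 FPKM in distal libraries. Emcn, an endothelial sialomucin, measured 5.81, 6.26 and 6.32 FPKM in proximal libraries and 2.89, 0.264 and 0.806 FPKM in distal libraries, highest of the distal group in distal replicate 1 (limma, adjusted p = 0.0262). Of 11 fibroblast and smooth muscle markers, 5 were higher, with a summed level of 796 to 822 FPKM in proximal and 834 to 877 FPKM in distal libraries. Most of that sum was Dcn, which did not pass and lay at 640.6 to 709.9 FPKM in proximal and 737 to 789 FPKM in distal libraries, while the 5 called markers ran the other way. Of 4 nerve and glia markers, 2 were higher, with sums of 43.8 to 61.2 FPKM in proximal and 36.4 to 43.5 FPKM in distal libraries. None of 3 tested immune markers passed, with sums of 18.9 to 34.3 FPKM in proximal and 25.2 to 30.9 FPKM in distal libraries. Of 10 luminal markers, 2 were higher and 2 lower, with sums of 3262 to 3490 FPKM in proximal and 2290 to 3107 FPKM in distal libraries. Of 7 tested secretory products, 1 was higher and 1 lower, with sums of 1070 to 1355 FPKM in proximal and 1695 to 2243 FPKM in distal libraries. Most of the distal sum came from the product called lower. Only 2 of the 7 had a negative log2 fold change, and the median was 0.43. Of 11 basal markers, 5 were higher, among them Krt5, which averaged 618 FPKM in the proximal and 380 FPKM in the distal group. Emcn and Krt5 did not pass without distal replicate 2 or 3 or proximal replicate 2 or 3, or with no filter, and Emcn did not with a pseudocount of 0.1 (limma, adjusted p up to 0.104). None of 6 mitochondrially encoded and 2 nuclear-retained RNAs passed. The part of these cells in the members' levels was not tested.

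Among the genes with profiles most like the members' mean profile over the 6 libraries were Dapk2, Coil, Moap1, Cdkn2aip, Egr2, Prickle3 and Il33, with Pearson's r from 0.9952 to 0.9991 among tested genes that are not members. Coil, which encodes the Cajal body protein coilin, measured 3.31, 3.89 and 3.86 FPKM in proximal libraries and 6.23, 23.5 and 20.0 FPKM in distal libraries (limma, adjusted p = 0.0447). Il33, an alarmin cytokine of epithelia, measured 19.0, 18.2 and 18.0 FPKM in proximal libraries and 25.1, 41.6 and 41 FPKM in distal libraries (limma, adjusted p = 0.0303). As these genes were chosen for their likeness to the members, their pattern and their group difference follow in part from that choice and are given as a description. The calls of Coil and Il33 were lost with no filter and without any 1 of distal replicates 2 and 3 and proximal replicates 2 and 3, and that of Coil also without proximal replicate 1 and without the variance trend (limma, adjusted p up to 0.152). Moap1 and Prickle3 had log2 fold changes of -0.14 and -0.27, so likeness of profile here did not require a large difference.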

How the data were processed

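RNA was measured by sequencing in 6 libraries, 3 from proximal and 3 from distal prostate basal cells, grouped and numbered by the labels. The submitters' processing notes name bcl2fastq 1.8.3, TopHat, Cufflinks and build mm10. The annotation and the versions of TopHat and Cufflinks are not given in the sources used here. The deposited values are FPKM, with an interval, for 63241 transcripts in each library, per the file headers. They are not counts, and depth was read from the interval widths, on the full transcript length.

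Transcripts carry no gene names. Each was matched to a GENCODE M21 gene (GRCm38, the assembly of mm10) by genomic span and spliced length, with a score (span overlap times length ratio) of 0.5 or more. Others were matched by exon content of at least 0.8. After Jund was seen to be unmatched, transcripts with at least 0.9 overlap with the span of a RefSeq gene were added, 619 in all. The 53942 matched transcripts held 94.6% of the FPKM. FPKM was summed per gene, without scaling between libraries. With 2000 altered GENCODE transcripts of protein-coding genes with several transcripts, 88.2% were assigned, 99.8% of them correctly. This check covered the matching by score and by exon content. It did not cover the RefSeq step, by which Jund was matched.

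Genes averaging 1 FPKM or more entered a two-sided limma 3.58.1 test (lmFit, then eBayes with a variance trend, under R 4.3.3) of log2(FPKM + 1). It had no covariates, and p was adjusted by Benjamini-Hochberg over all tested genes. The test was checked on simulated data with independent noise in each gene and library. A shift shared by many genes of a library was not simulated. Motifs were searched on both strands of RefSeq promoters, and TGACGT and TATAAA were added after the sequences were seen. The members, the gene lists and the tests were chosen with earlier results of these data known. Named genes are the members, up to 4 genes of each list with the smallest p, and the 8 genes most like the members' mean profile. A few of these genes are not reported here. Krt14, Krt18, Trp63 and Hspa1a, outside this rule, were picked with their values in view. Alternatives changed the pseudocount, the filter, the scaling, the variance trend, the matching, the replicate block and the libraries used.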

Additional observations from a re-analysis of the deposited data

How the results depend on the processing

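The count of members lower in proximal cells was 2 with all libraries and ranged from 1 to 7 on leaving out 1 library. It was 1 with no filter and 8 without both libraries numbered 1. Over all genes, 468 were higher and 260 lower, against 926 and 1414 without both libraries numbered 1. Leaving out 1 library gave 207 to 540 higher and 46 to 634 lower genes. A filter at 5 FPKM gave 277 higher and 168 lower genes, and no filter gave 140 lower genes. No fold change of a member changed sign under any alternative run. Ier2 passed under all of them (limma, adjusted p from 0.00161 to 0.0479), and Fosl1 and Fosl2 under none. Median ratio scaling brought Fos past the threshold (limma, adjusted p = 0.0388). Jund has no value with closely matched transcripts only.

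With the replicate number as a block (replicate block), 6 members, 892 higher and 748 lower genes were called. Beside Ier2 and Junb, the members were Fos, Jun, Atf3 and Egr1 (limma, adjusted p = 0.0259, 0.023, 0.0207 and 0.00705). The calls of Fos, Jun, Atf3 and Egr1 thus depended on whether equal numbers are taken as pairs. Deviations from the group means, across genes, had a correlation of 0.38, 0.04 and 0.28 between libraries numbered 1, 2 and 3. Libraries numbered 1 and 3 correlated best with the library of their own number, whereas proximal replicate 2 correlated best with distal replicate 3 (0.17). The labels do not say whether equal numbers share an animal, a sort or a day. The numbers were therefore not taken to pair the samples.

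The deposited intervals reached 13.6% of the value for Fosb and at most 4.78% for the other members. Whether depth limits the comparison of low genes was not tested.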
